A study of Homo sapiens with 6 samples.

Results

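Cytosolic ribosomal proteins are the protein components of the 80S ribosome, the particle that translates messenger RNA in the cytoplasm. They were taken here as every array probe whose gene symbol begins with RPL or RPS in the ribosomal naming pattern, without the RPS6K kinases and without pseudogenes whose symbol has a digit, P and a digit in a row. This gave 141 probes of 87 genes, among 48799 probes with values. Of these, 130 probes of 83 genes were kept, because their detection p (a probe's brightness against the negative control beads of its array) was under 0.01 on at least 3 of 6 arrays. The same filter kept 13423 probes in all. RWPE-1, an immortalised line from human prostate epithelium that does not form tumours, was transfected with an oligomer at 100 nM and its RNA was read 72 h later. The 3 LNA-205 samples (replicates D, E and F) received a locked nucleic acid antisense to miR-205, and the 3 LNA-Scr samples (A, B and C) a scrambled control oligomer. Both groups therefore carry a transfected oligomer, and each sample was read on 1 single-colour Illumina bead array. All samples are of 1 cell line, so p-values measure the spread between transfections of that line, which may be technical. Silencing itself was not measured, since the arrays do not read the mature microRNA.

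The large (60S) subunit joins amino acids and holds the exit tunnel of the new chain, and the small (40S) subunit decodes the message. Cells make the ribosomal proteins in near-equal numbers and degrade those that find no partner. Their messages are among the most abundant and most evenly regulated of a growing cell. Most of these messages start with a 5′ terminal oligopyrimidine (TOP) tract, a cytosine followed by a run of pyrimidines, through which the kinase mTOR and the protein LARP1 control their translation and stability. MicroRNAs act through the seed, bases 2 to 8, which pairs with the target message. The mature miR-205 that LNA-205 is directed against is shown with its seed in capitals, from RefSeq on GRCh38.p14 (chr1:209432166-209432187, plus strand).
hsa-miR-205-5p: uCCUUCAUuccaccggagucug

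The TOP tract is what most of these genes share beyond their names. Promoters of RefSeq (GRCh38.p14) were found for 65 of the 83 genes, with 75 annotated transcription starts. A start was counted as a TOP start where its first base was C and the next 4 bases on the transcribed strand were all C or T. Of the 75 starts, 43 (57.3%) met this, against 4.07% of 35116 starts in the whole table. By gene, 26 of 35 large-subunit genes and 16 of 22 small-subunit genes had a TOP start. Among paralogues, which are separate genes for near copies of a ribosomal protein, 1 of 8 had one. The median unbroken C/T run through the start was 10 bases in the ribosomal protein genes and 0 in the whole table. The windows printed next run from 15 bases before the start to the 15 bases that begin with it, with the C/T run through the start in capitals. They cover 2 genes with the smallest p values (RPL37A and RPL34), genes with bright probes, other genes named later, and paralogues, some beside the gene they copy. Every large- or small-subunit gene printed has a TOP start. The 9 large-subunit and 6 small-subunit genes without one by this rule, RPL9, RPL6 and RPL32 among them, are not printed. RPS7 is also among them, though its annotated start is a C in a run of 11 bases. The rule reads annotated starts only. Where these messages start in RWPE-1 was not measured, so a gene without a counted start may still have a TOP message.
RPL37A (chr2:216498829-216498858, plus strand): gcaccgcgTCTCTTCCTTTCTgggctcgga
RPL34 (chr4:108620561-108620590, plus strand): aaaggCTTTTTTCTTCCTCTTCCggggacg
RPL41 (chr12:56116618-56116647, plus strand): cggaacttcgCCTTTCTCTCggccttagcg
RPS27 (chr1:153990747-153990776, plus strand): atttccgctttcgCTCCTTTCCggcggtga
RPS16 (chr19:39435935-39435964, minus strand): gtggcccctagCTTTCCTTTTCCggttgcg
RPS25 (chr11:119018329-119018358, minus strand): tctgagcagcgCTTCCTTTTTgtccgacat
RPLP2 (chr11:809952-809981, plus strand): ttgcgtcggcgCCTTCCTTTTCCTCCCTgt
RPS6 (chr9:19380222-19380251, minus strand): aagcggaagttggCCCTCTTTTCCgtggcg
RPL22 (chr1:6199581-6199610, minus strand): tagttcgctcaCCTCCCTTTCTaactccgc
RPL26 (chr17:8383179-8383208, minus strand): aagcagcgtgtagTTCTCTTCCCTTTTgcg
RPL36A (chrX:101390996-101391025, plus strand): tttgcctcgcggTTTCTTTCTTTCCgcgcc
RPL36AL (chr14:49620612-49620641, minus strand): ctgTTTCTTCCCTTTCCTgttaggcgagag
RPS27L (chr15:63157463-63157492, minus strand): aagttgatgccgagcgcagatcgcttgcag
RPL26L1 (chr5:172958714-172958743, plus strand): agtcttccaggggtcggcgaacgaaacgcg
RPL7L1 (chr6:42879601-42879630, plus strand): cggaagtgcggcgccgtagctaggagcgga
RPL10L (chr14:46651767-46651796, minus strand): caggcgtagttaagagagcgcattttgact

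RPS27L, the p53-responsive near copy of RPS27, began with G and had no C/T run at its start, where RPS27 had one of 9 bases. RPL26L1 likewise had a run of 0 bases at both of its starts, beside 14 in RPL26. RPL36AL kept a run of 15 bases, but that run ended within the 4 bases after the start, so it was not counted. RPL34 also has 2 annotated starts, and the one with the longer run is printed.

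**Figure D1:**
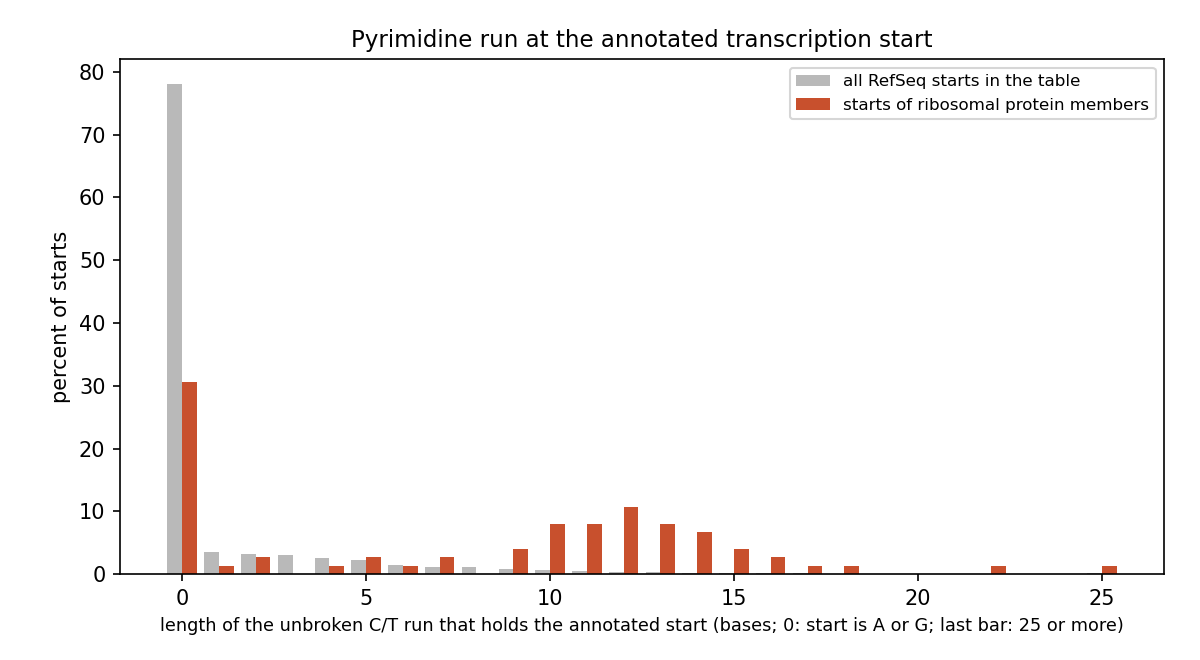
Length of the unbroken C/T run that holds the annotated transcription start (horizontal axis, bases) against the percent of starts (vertical axis), for all 35116 RefSeq starts in the table (grey) and the 75 starts of ribosomal protein genes (orange). The ribosomal protein starts fall into 30.7% with a run of 0 and a broad group around 12 bases, while 78.1% of all starts have a run of 0.

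No ribosomal protein probe differed between LNA-205 and LNA-Scr beyond the threshold, and most differences were small. Values are log2 intensities after background correction and quantile normalization, and a difference is LNA-205 minus LNA-Scr. The median log2 difference of the 130 probes was 0.017, with the middle 50% between −0.036 and 0.080, and −0.00032 over all 13423 kept probes. The differences ran from −0.36 to 0.38. With limma and Benjamini-Hochberg adjustment over all kept probes, 0 of the 130 passed at an adjusted p of 0.05, and 0 of the 13423 did (0%), so the background leaves no call to compare with. The smallest adjusted p among the ribosomal protein probes was 0.792. Without adjustment, 2 of 130 had a limma p under 0.05 (1.54%), against a background of 6.21%. The 3 LNA-205 values lay wholly above or below the 3 LNA-Scr values for 11 of 130 probes (8.46%), against 11.9% over all kept probes. Of these, 9 were higher in LNA-205 (6.92%, background 6.26%) and 2 lower (1.54%, background 5.68%).

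The intervals put a bound on what could have been missed. The 95% limma interval of the difference lay within ±0.5 (log2) for 113 of 130 probes (86.9%), against 65.7% of all kept probes, and within ±1 for all 130. It lay within ±0.3 for 44 of them. The share within ±0.5 differed with brightness. It was 97.7% in the 44 brightest ribosomal protein probes and 30.8% in the 13 with a mean log2 intensity under 10. In the 114 other kept probes as bright as the 44 brightest it was 99.1%. At that brightness, narrow intervals were thus not particular to ribosomal protein probes. The median SE was 0.12 for ribosomal protein probes and 0.13 over all kept probes. The number of arrays, 3 a group, limits the precision. These intervals are for single probes without adjustment, so they are not the limit of the adjusted call. Over all kept probes the differences ran from −1.72 to 1.36, and 0 passed it.

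The probes of these genes were among the brightest on the array. Their median normalized log2 intensity was 14.65, brighter than 97.5% of kept probes, and 83 of the 130 stood in the brightest 5% of kept probes. Bright probes differed least between groups. The 44 brightest ribosomal protein probes had a median absolute log2 difference of 0.044, and the 13 with a mean log2 intensity under 10 one of 0.19. The 114 other kept probes as bright as those 44 had a median absolute difference of 0.048. The highest deposited value on any array was 16.16 on the log2 scale, and whether the brightest probes still respond in proportion to their message was not tested.

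**Figure D2:**
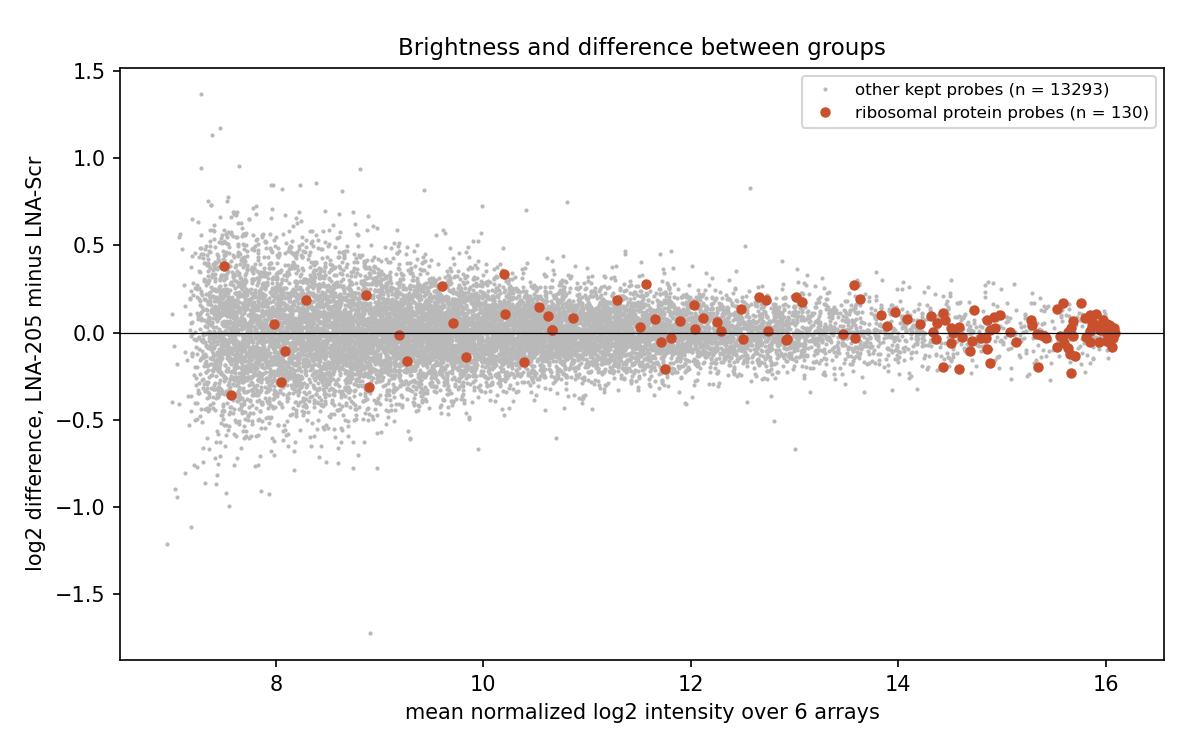
Mean normalized log2 intensity over 6 arrays (horizontal axis) against the log2 difference between groups (vertical axis) for the 130 ribosomal protein probes (orange) and the 13293 other kept probes (grey). Most ribosomal protein probes crowd at the bright end, where differences of all probes lie close to 0, and their widest differences, from −0.36 to 0.38, belong to dim probes.

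Before any normalization, the 130 probes held 7.60%, 6.87% and 7.32% of the summed intensity of all probes on LNA-Scr replicates A, B and C. They held 7.09%, 7.22% and 7.30% on LNA-205 replicates D, E and F. The LNA-205 shares lay inside the range of the LNA-Scr shares, whose low end was replicate B alone. Each LNA-205 share was below those of LNA-Scr replicates A and C. Quantile normalization gives every array the same distribution of values. With arrays centred on their medians in its place, 10 of the 130 probes were higher and 120 lower, where the main counts were 75 and 55. The median over all kept probes was then −0.16 and that of the 130 probes −0.17, so relative to all probes the shift was −0.011, with 60 probes above the median of all.

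RPL37A, a protein of the 60S core, had the smallest p. Its dimmer probe read 9.54, 9.43 and 9.42 in LNA-Scr and 9.80, 9.78 and 9.61 in LNA-205. The groups did not overlap, and the difference was 0.26 (SE 0.11, limma unadjusted p = 0.0373, adjusted p = 0.792). The brighter RPL37A probe, with a mean of 15.8, had a difference of 0.081. RPL34, also of the large subunit, was the other probe at an unadjusted p under 0.05. It read 10.25, 9.93 and 9.93 in LNA-Scr and 10.46, 10.19 and 10.46 in LNA-205, so that LNA-Scr replicate A stood above LNA-205 replicate E. The difference was 0.33 (SE 0.14, limma unadjusted p = 0.0405, adjusted p = 0.795). A brighter RPL34 probe gave −0.040.

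RPL9, of the large subunit, read 11.54, 11.16 and 11.58 in LNA-Scr and 11.66, 11.76 and 11.67 in LNA-205 on its dimmest probe. The groups did not overlap, with LNA-Scr replicate B lowest, and the difference was 0.28 (SE 0.14, limma adjusted p = 0.804). Without that array the difference was 0.14, and the brighter RPL9 probes gave 0.079 and 0.038 with all arrays. RPS15A, of the small subunit, showed the same order. Its dimmest probe read 13.52, 13.20 and 13.58 in LNA-Scr and 13.60, 13.87 and 13.65 in LNA-205. The difference was 0.27 (SE 0.14, limma adjusted p = 0.804), and 0.16 without LNA-Scr replicate B. RPL6, of the large subunit, read 12.98, 12.82 and 12.94 in LNA-Scr and 13.18, 13.15 and 13.02 in LNA-205 on its dimmest probe, without overlap. The difference was 0.20 (SE 0.11), and the brighter RPL6 probes gave −0.024 and −0.051.

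On the lower side, the 5 probes with the smallest p were those of RPL37, RPL41, RPLP1, RPL8 and RPL32. RPL37, whose other probe was not kept, read 8.42, 7.99 and 8.16 in LNA-Scr and 7.85, 7.81 and 8.06 in LNA-205. The groups overlapped at LNA-Scr replicate B, and the difference was −0.28 (SE 0.14, limma adjusted p = 0.804), or −0.17 without LNA-Scr replicate A. RPL41, one of the shortest human proteins, read 9.10, 8.82 and 9.24 in LNA-Scr and 8.61, 8.62 and 8.995 in LNA-205 on its dim probe. These values overlapped as well, with a difference of −0.31 (SE 0.16). The bright RPL41 probe, the brightest of all 130, gave −0.0041.

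RPL8, a protein close to the peptidyl transferase centre, read 11.67, 11.90 and 12.004 in LNA-Scr and 11.64, 11.65 and 11.66 in LNA-205 on its dimmer probe. The groups stood apart by a narrow margin at LNA-Scr replicate A, with a difference of −0.21 (SE 0.12, limma adjusted p = 0.823), or −0.14 without LNA-Scr replicate C. Its brighter probe gave 0.00093. RPL32, of the large subunit, read 7.47, 7.51 and 8.25 in LNA-Scr and 7.33, 7.34 and 7.49 in LNA-205 on the dimmest of its 4 probes. It passed detection on all 3 arrays of LNA-Scr and 1 of LNA-205. The difference of −0.36 (SE 0.21) rested on LNA-Scr replicate C, and was −0.10 without it.

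**Figure D3:**
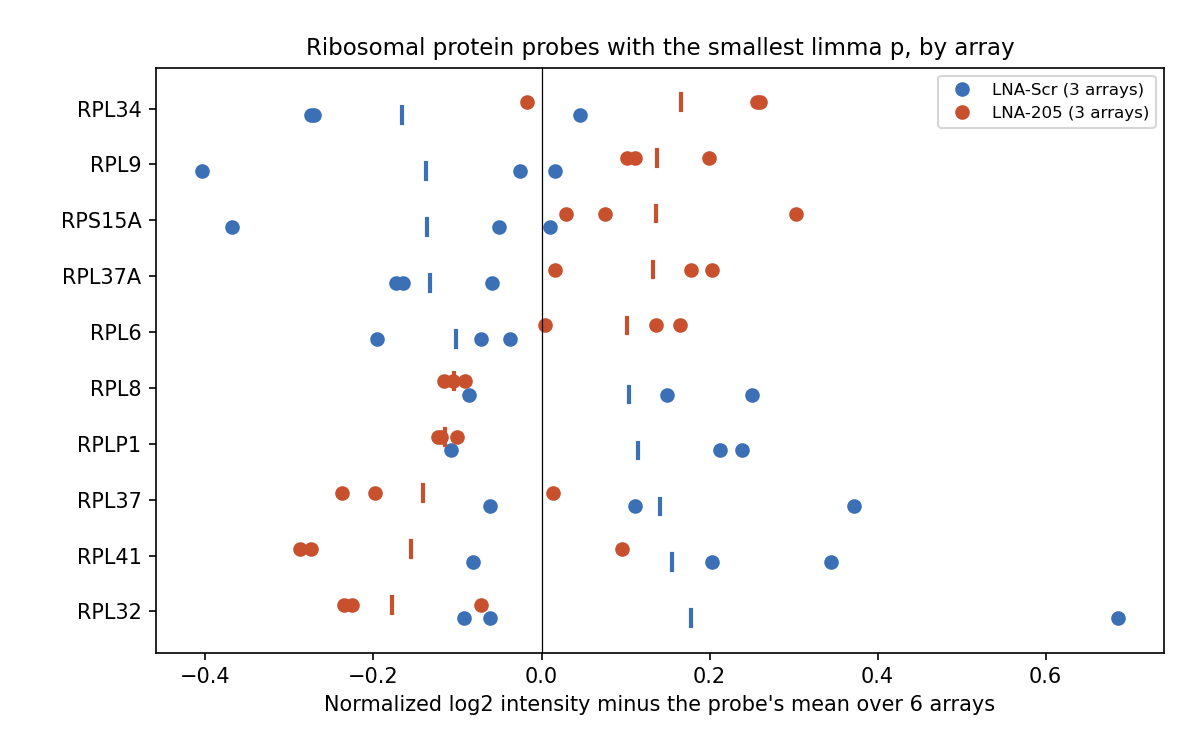
Normalized log2 intensity minus the probe's mean over 6 arrays (horizontal axis) for the 5 ribosomal protein probes per direction with the smallest limma p, with LNA-Scr arrays in blue, LNA-205 arrays in orange and group means as bars. The groups stay apart for RPL9, RPS15A, RPL37A, RPL6 and RPL8 and overlap for the other 5.

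Probes of 1 gene often differed from each other. Of the 83 genes, 35 had 2 or more kept probes, and in 15 of these the probes differed in sign. Of the 10 probes with the smallest p, 9 belonged to such genes and 8 were the dimmest kept probe of their gene. Brightness of probes of 1 gene differed by a median of 1.11 on the log2 scale, and by up to 8.14, between the RPL32 probes at 7.57 and 15.7. A probe's brightness is thus no measure of the level of its message, and no gene's level is set against another's here. In 3 genes the probes differed in sign by over 0.3 (log2). For RPL32 the 4 probes gave −0.36, −0.11, 0.19 and −0.14 from dimmest to brightest. For RPS24, a small-subunit protein mutated in Diamond-Blackfan anaemia, 2 probes of like brightness gave −0.21 (SE 0.13) and 0.13 (SE 0.11), and the first was −0.13 without LNA-Scr replicate C. RPL34 was the third, as given above.

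By place in the ribosome, medians stayed between −0.036 and 0.088. The 5S particle, RPL5 and RPL11 with the 5S RNA, is known to bind MDM2 when ribosome assembly fails. RPL5 read 14.93, 14.75 and 14.91 in LNA-Scr and 14.85, 14.84 and 14.80 in LNA-205, with overlap and a difference of −0.033 (SE 0.10). One RPL11 probe read 15.67, 15.71 and 15.67 in LNA-Scr and 15.48, 15.66 and 15.65 in LNA-205, without overlap, and differed by −0.090 (SE 0.10). It was −0.032 without LNA-205 replicate D. The other RPL11 probe gave −0.018 (SE 0.12), with overlap, and its sign changed without LNA-Scr replicate C or LNA-205 replicate D or F.

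The P-stalk recruits elongation factors, and RPL12 stands at its base. RPLP0, also a protein of the stalk, was not among the kept genes. The 6 probes of RPLP1, RPLP2 and RPL12 gave 1 higher and 5 lower values, with a median of −0.036. With 1 array left out the median ran from −0.10 (without LNA-Scr replicate B) to −0.019 (without LNA-Scr replicate A), and without LNA-205 replicate F 3 were higher and 3 lower. RPLP2 read 16.10, 16.01 and 16.05 in LNA-Scr and 16.11, 16.07 and 15.96 in LNA-205, a difference of −0.0097 (SE 0.10). One of 3 RPLP1 probes stood lowest in the stalk. It read 15.90, 15.88 and 15.56 in LNA-Scr and 15.56, 15.54 and 15.55 in LNA-205, with a difference of −0.23 (SE 0.12, limma adjusted p = 0.805). LNA-Scr replicate C lay among the LNA-205 values. The other RPLP1 probes gave −0.081 and −0.020.

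Proteins of the peptide exit tunnel and its rim had the highest median, 0.088, with 9 of 11 probes higher and 2 lower, and 0 at an unadjusted p under 0.05. RPL22, an RNA-binding protein of the rim, read 13.58, 13.63 and 13.38 in LNA-Scr and 13.74, 13.67 and 13.77 in LNA-205. The groups did not overlap, with a difference of 0.19 (SE 0.11, limma adjusted p = 0.826), or 0.12 without LNA-Scr replicate C. All 3 probes of RPL17, which lines the tunnel, were higher, by 0.19, 0.17 and 0.088 (SE 0.14, 0.10 and 0.11). The first of these was 0.071 without LNA-Scr replicate B, the second 0.11 and the third 0.040 without LNA-205 replicate E. RPL39, also of the tunnel wall, was lower, at −0.20 (SE 0.13), or −0.092 without LNA-Scr replicate C. With 1 array left out, 8 (without LNA-Scr replicate B) to 10 (without LNA-Scr replicate C) of the 11 probes were higher, with medians from 0.063 to 0.14. With arrays centred on their medians all 11 were lower, with 8 of them above the median of all probes.

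Small-subunit proteins had 25 probes higher and 18 lower, with a median of 0.017. The 16 probes of the head, which includes RPS3, RPS15 and RPS19, split into 8 higher and 8 lower with a median of −0.0061. The 27 of the body and platform had a median of 0.027. RPS6, the substrate of the S6 kinases downstream of mTOR, read 16.0025, 15.95 and 15.87 in LNA-Scr and 16.07, 15.95 and 16.02 in LNA-205 on its brighter probe. That difference was 0.073 (SE 0.10), and the dimmer RPS6 probe gave 0.069 (SE 0.15). RPS7 was higher on both of its probes, by 0.17 (SE 0.11) and 0.20 (SE 0.16), or by 0.10 and 0.060 without LNA-Scr replicate B. RPS3, at the entry of the message channel, differed by −0.12 (SE 0.11), from −0.20 without LNA-Scr replicate B to −0.064 without LNA-Scr replicate C.

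**Figure D4:**
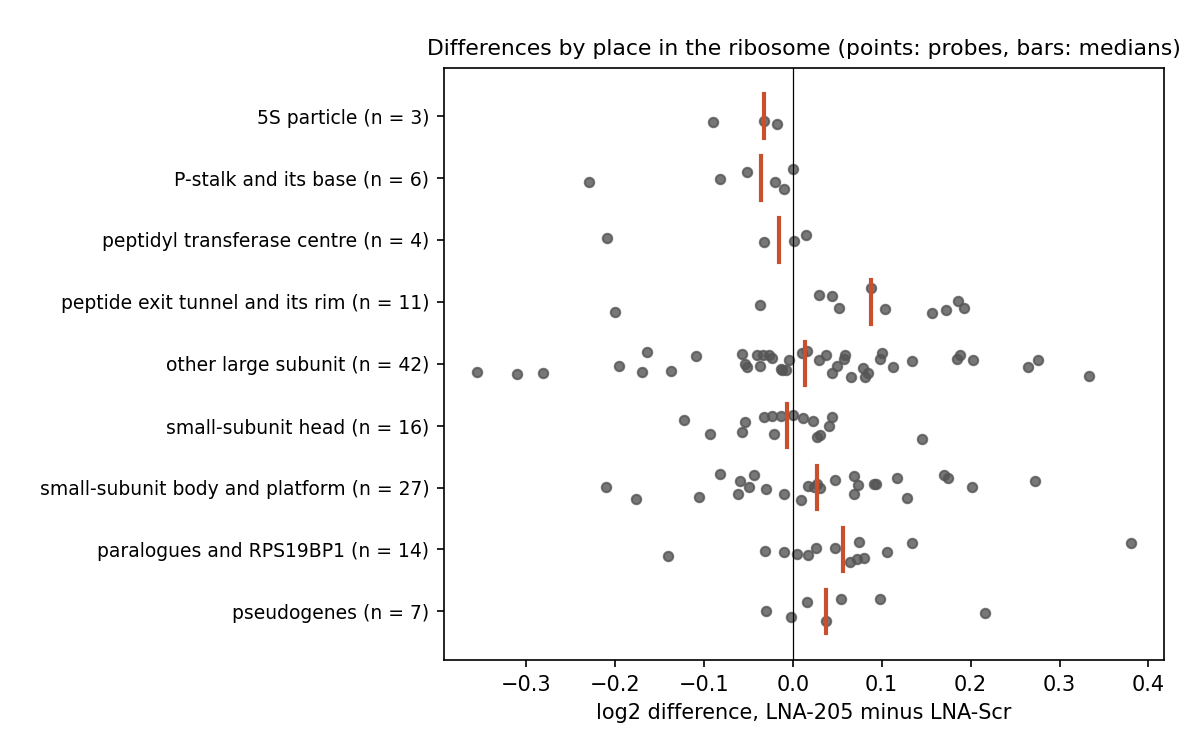
Log2 difference, LNA-205 minus LNA-Scr (horizontal axis), of each of the 130 kept probes (points, with medians as bars) by place in the ribosome. The medians lie between −0.036 for the P-stalk and 0.088 for the exit tunnel, and each group with more than 3 probes has members on both sides of 0.

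The 5 brightest probes were those of RPL41, RPS27, RPS16, RPS25 and RPLP1. RPS27, a zinc-finger protein of the small subunit, read 16.07, 16.10 and 16.04 in LNA-Scr and 16.11, 16.09 and 16.09 in LNA-205, a difference of 0.027 (SE 0.095). RPS16 read 16.06, 16.13 and 16.07 against 16.05, 16.07 and 16.04, and RPS25 differed by −0.013. All overlapped between groups.

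Near copies of ribosomal proteins were kept on 13 probes of 9 genes, 10 higher and 3 lower, with a median of 0.048 and 0 at an unadjusted p under 0.05. RPS27L read 13.46, 13.38 and 13.59 in LNA-Scr and 13.52, 13.50 and 13.38 in LNA-205, with a difference of −0.0093 (SE 0.11). RPL26L1 gave 0.065 and 0.13, RPL36AL 0.026 and 0.0044, RPL7L1 −0.031 and 0.072, and RPL39L 0.075 and 0.017. RPL10L, described as a testis form, was dim and gave 0.048 (SE 0.23). RPS4Y1 and RPS4Y2 gave 0.081 and −0.14. RPSA2 had the largest difference of all members, 0.38 (SE 0.24, limma adjusted p = 0.848). It read 7.75, 6.75 and 7.41 in LNA-Scr and 7.44, 7.86 and 7.75 in LNA-205, and was above background on 3 of 6 arrays. Its values overlapped between groups, and without LNA-Scr replicate B the difference was 0.10.

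Probes named for transcribed pseudogenes with a letter before the P, which the naming rule keeps, gave 5 higher and 2 lower values among 7. RPL13AP20 (−0.030), RPL13AP3 (0.098) and RPL13AP6 (0.038) are near copies of RPL13A, and RPL23AP7 (0.22 and 0.016), RPL23AP32 (0.054) and RPL23AP64 (−0.0018) of RPL23A. Signal of the parent message on these probes cannot be told apart from their own. RPS19BP1, which shares the letters but is a nucleolar binding partner of RPS19, differed by 0.11 (SE 0.13). Without paralogues, pseudogenes and RPS19BP1, the 109 probes of 67 genes had a median of 0.010.

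The 11 probes that were not kept included both probes of RPL10 and the probes of RPL22L1 and RPL3L, the near copies of RPL22 and RPL3. None of these passed detection on any array, and neither did single probes of RPL3, RPL36A and RPS27L or 3 pseudogene probes (RPL13AP17, RPL23AP32 and RPL23AP64). A second RPL37 probe passed on 1 array. Of 77 standard ribosomal protein genes, 68 were named on the array and 67 were kept. The others were not analysed here.

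The difference between members with an annotated TOP start and members without one was not tested. The 63 probes of 43 genes with a TOP start had a median difference of 0.00069, 32 higher and 31 lower. The 44 probes of 22 genes without one had a median of 0.039, 29 higher and 15 lower, and 7 of the 9 kept paralogues are among these genes. The other 18 genes had no promoter in the table. This compares abundance only, since arrays do not measure translation.

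After normalization, LNA-Scr replicate B stood apart in these probes more than in the rest of the array. It was the lowest of the 6 arrays for 40 of the 130 probes (30.8%), and for 17.2% of all kept probes. The median deviation from the 6-array mean was −0.061 on replicate B, between 0.0060 and 0.022 on the other 5 arrays, and 0.0025 on replicate B over all kept probes. On replicate B the median deviation was −0.19 in the 21 probes with a mean log2 intensity between 12 and 14, and 0.00029 in the 44 brightest. Before normalization, replicate B instead had the highest median log2 intensity of the 130 probes, 14.77, against 14.52 to 14.705 on the other 5 arrays. Its share of the summed intensity was then the lowest, 6.87%, and the cause of the low values after normalization was not tested. Without replicate B the median log2 difference of the 130 probes was −0.0076, with 59 higher and 71 lower. For single probes, values without replicate B stand beside RPL9, RPS15A, RPL17, RPS7, RPS3 and RPSA2 above.

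**Figure D5:**
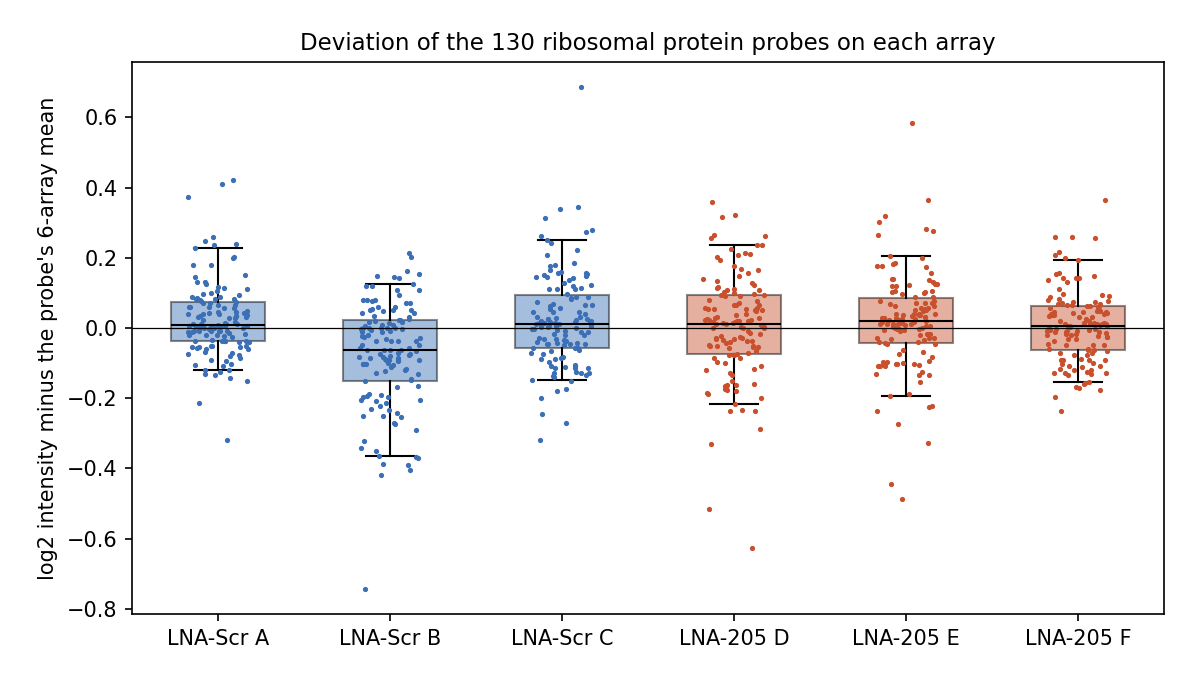
Normalized log2 intensity minus the probe's mean over 6 arrays (vertical axis) for the 130 ribosomal protein probes on each array, with boxes for the middle 50%, whiskers from the 5th to the 95th percentile, LNA-Scr in blue and LNA-205 in orange. LNA-Scr replicate B has a median of −0.061, and the other arrays sit between 0.0060 and 0.022.

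Other parts of the translation machinery were described from lists of known members. FAU, whose product is the ribosomal protein of the small subunit outside the RPS names, differed by 0.072 (SE 0.12). Translation factors and other TOP messages had all 17 listed genes kept, on 29 probes with 13 higher, 16 lower and a median of −0.0025. None was at an unadjusted p under 0.05, and TPT1, a TOP message for a growth-related protein, had the smallest on its dimmer probe, with a difference of 0.23 (SE 0.11, limma adjusted p = 0.804), beside 0.020 on its brighter one. NAP1L1, a histone chaperone, gave 0.27, 0.33 and 0.053 on 3 probes. EEF1B2, an elongation factor subunit, gave values from −0.31 (SE 0.17) to 0.15 (SE 0.11) on its probes.

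Ribosome biogenesis genes were kept for 44 of 50, on 59 probes with 27 higher and 32 lower and a median of −0.014. At an unadjusted p under 0.05, 1 was higher and 1 lower, against a background of 3.19% and 3.02%. GRWD1, a histone-binding assembly factor, read 11.94 ± 0.10 in LNA-Scr and 11.63 ± 0.065 in LNA-205 (SD, n = 3 each), a difference of −0.31 (SE 0.11, limma adjusted p = 0.761). POLR1C, a subunit shared by RNA polymerases I and III, read 10.07 ± 0.11 in LNA-Scr and 10.37 ± 0.092 in LNA-205 (SD, n = 3 each), a difference of 0.29 (SE 0.11, limma adjusted p = 0.772). Its other probe gave 0.057. POLR1E, of RNA polymerase I, gave −0.19 (SE 0.11) and −0.063.

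Genes of growth control over translation were kept for 11 of 13, with 5 probes higher and 10 lower and a median of −0.041. EIF4EBP1, the mTOR target that holds back the cap-binding protein, was dim at 7.65 ± 0.10 in LNA-Scr and 7.31 ± 0.13 in LNA-205 (SD, n = 3 each). Its difference was −0.33 (SE 0.11, limma adjusted p = 0.761), the 1 of 15 probes of this list at an unadjusted p under 0.05, where 6.21% of all kept probes were. It passed detection on 3 LNA-Scr arrays and 1 LNA-205 array. EIF4EBP2 differed by −0.20 (SE 0.11) and TSC1, an inhibitor of mTOR signalling, by 0.21 (SE 0.11) on 1 probe and by −0.061 and −0.027 on its others. Of 8 genes of the p53 response to ribosome stress, 4 were kept, with 3 higher and 1 lower. CDKN1A, the cell cycle inhibitor p21, differed by 0.18 (SE 0.11), GDF15 by 0.24 (SE 0.21), SESN1 by 0.064 (SE 0.11) and MDM4, an inhibitor of p53, by −0.15 (SE 0.26), and none was at an unadjusted p under 0.05.

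Of 6 markers of basal epithelium, the labelled cell type, 4 were named on the array and all 4 were kept. KRT17 and TP63 had no named probe, so they could not be read here, and probes without a listed symbol may include them. KRT5, a basal keratin, read 14.67 ± 0.030 in LNA-Scr and 14.79 ± 0.091 in LNA-205 (SD, n = 3 each). The 6 basal probes gave 4 higher and 2 lower values. TRIM29 gave 0.26 (SE 0.098, limma unadjusted p = 0.0315, adjusted p = 0.784), without overlap, and 0.21, KRT14 gave 0.030, and ITGA6 gave −0.13 and −0.11. Of 6 luminal prostate markers 4 were named on the array, and none was kept. All 6 stromal fibroblast markers were named, and none was kept. Of 6 immune and endothelial markers CD14 and CD68 were kept, with differences of 0.31 (SE 0.17) for CD14 and 0.20 and 0.014 for CD68, and PTPRC, the general leukocyte marker, was not. Their summed normalized intensity ran from 5513 to 6222 in LNA-Scr and from 6239 to 6570 in LNA-205, and its part in the results was not tested. Of 4 neuroendocrine markers INSM1 was kept, dim, with a difference of 0.59 (SE 0.28, limma adjusted p = 0.804). It passed detection on 1 LNA-Scr array and 2 LNA-205 arrays, and its values overlapped between groups. Between 12585 and 14195 probes per array were above background.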

How the data were processed

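RNA of 6 RWPE-1 samples, 3 per group, was read on Illumina bead arrays, with groups and replicate letters from the sample titles. The unnormalized table as deposited holds log2 intensities, a scale taken from its range. Per the file headers, a detection p-value stands beside each sample. The authors' processed log2 values served as an alternative. The submitters' processing notes name lumi, and how it was run is not stated there. No values were held by 4 of the 48803 rows. Values were background corrected and quantile normalized with limma's neqc (offset 16). Each kept probe was a feature of its own in limma 3.58.1 (lmFit and eBayes, two-sided, R 4.3.3), with Benjamini-Hochberg adjustment over 13423 probes. The fit was tested on simulated data. Symbols came from the platform annotation (28095 probes with 1 symbol, 13 with several, 20691 not listed), updated through a RefSeq gene table for 28056. Sequences are RefSeq's. The members and all lists, including the grouping by place in the ribosome, were chosen with earlier results of these data known. Probes named with values are the 5 per direction with the smallest p, the 5 brightest, RPS6, RPLP1, RPLP2, RPL5, RPL11, RPL22, RPS27 and RPS27L, members that are not standard ribosomal proteins, genes whose probes differ in sign by over 0.3, and up to 3 genes from each other list. RPL17, RPL39, RPS7, RPS3, MDM4 and markers were named after their values were seen. Alternatives covered background correction, scaling, detection filter, probes per gene, variance trend, symbols, members and each array left out.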

Additional observations from a re-analysis of the deposited data

How the results depend on the processing

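The count of ribosomal protein probes past the adjusted threshold was 0 under each of the 16 alternatives, whose shares over all kept probes are not given here. At an unadjusted limma p under 0.05 the main count was 2 (6.21% of all kept probes). It was 4 without background correction (6.41% of all), 9 with arrays centred on their medians (9.28%), 4 with the authors' processed values (6.41%), 7 with a variance trend (6.64%), and 0 with the brightest probe (6.27%) or the mean of the probes of each gene (6.28%). Leaving out 1 array gave 1 (without LNA-205 replicate E) to 4 (without LNA-Scr replicate A). The shares over all kept probes are not given for these fits, so these counts are not read against a background. Probes without overlap numbered 11 (11.9% of all kept probes), against 34 with median centring (17.0% of all), 17 with the authors' values (11.9%), and 4 with the brightest probe and 6 with the mean of probes (12.2% each), where 83 genes were counted. They were 20 to 27 with 1 array left out, where 5 arrays overlap less often and the background was 20.0% to 23.5%. The median log2 difference of 0.017 moved to −0.17 with median centring, where the median of all probes was −0.16. It was −0.0076 to 0.027 with 1 array left out, and below 0 only without LNA-Scr replicate B. Of 704 values of the 52 named probes under alternatives, 41 moved by over 1 residual SD, 38 of them with median centring and 3 with the authors' values, and 77 had the opposite sign. The causes were not tested. No paired analysis was possible because the replicate letters are not shared between the groups.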

Other observations

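The naming rule left out 10 ribosomal protein pseudogene probes, of which 3 were above background on at least 3 arrays. RPS26P11 read 15.73, 15.88 and 15.75 in LNA-Scr and 15.77, 15.69 and 15.67 in LNA-205, a log2 difference of −0.076 (SE 0.10). RPL13P5 gave 0.018 (SE 0.10). RPL29P2 was dim and read 6.47, 7.46 and 6.67 in LNA-Scr and 8.21, 6.88 and 7.46 in LNA-205, a difference of 0.65 (SE 0.36, limma adjusted p = 0.817), with overlap between the groups.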
